A study of Mus musculus with 8 samples.

Results

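The clustered protocadherin genes are 3 neighboring gene families, alpha (Pcdha), beta (Pcdhb) and gamma (Pcdhg), that lie in tandem on mouse chromosome 18. The members were all protein-coding genes of GENCODE M21 on that chromosome whose symbol begins with Pcdha, Pcdhb or Pcdhg. This gave 57 of the 21755 protein-coding genes on chromosomes 1 to 19 and X, with 14 in the alpha, 22 in the beta and 21 in the gamma subcluster. On GRCm38 (mm10) they span chr18:36930184-37841873, which is 911.69 kb, and all are on the plus strand. The alpha subcluster (chr18:36930184-37187661) is separated by 77.3 kb from the beta subcluster (chr18:37264938-37524479), which is separated by 137 kb from the gamma subcluster (chr18:37661793-37841873). GENCODE M21 gives the symbol Pcdha11 to 2 records. The one that begins at 37005203 is called Pcdha10 here, because RefSeq places Pcdha10 there. Pcdhgb8, which GENCODE M21 lists as a polymorphic pseudogene, is not a member.

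Chromatin accessibility was measured by ATAC-seq, in which the Tn5 transposase cuts open DNA, in cultured cells derived from mouse mammary tumors driven by PyMT, the polyoma middle T oncogene, in strain FBV/N as the labels spell it. Cultures were WT or Lats1-CKO, in which the gene of the Hippo pathway kinase LATS1 is conditionally knocked out in the epithelial compartment. Each was sorted into luminal cells (EpCAM-high, CD49f-high) and basal-like cells (EpCAM-low, CD49f-high) and briefly expanded, and 2 libraries were made from each of the 4 groups. The WT luminal libraries carry the names BM1 and BM5, the WT basal-like ones BM2 and BM6, the Lats1-CKO luminal ones BM3 and BM7, while the Lats1-CKO basal-like ones are BM4 and BM8. All 4 groups carried PyMT and had been grown in culture. The labels do not say whether the 2 libraries of a group came from separate tumors, so the spread between them may be partly technical.

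Clustered protocadherins are cell surface adhesion proteins, best known in neurons, where single cells express different combinations of them and so tell their own branches from those of other cells. Each alpha and gamma gene has its own promoter and a large first exon, which encodes the extracellular and transmembrane parts and is spliced to 3 constant exons shared by the subcluster, whereas beta genes have no constant exons. Promoter choice is known to involve DNA methylation and contacts between distant enhancers and promoters that are held by CTCF and cohesin, and the C-type genes at the ends of the alpha and gamma subclusters are regulated apart from the others. In breast and other tumors the cluster is known for long-range silencing with DNA methylation. ATAC-seq peaks report open DNA, and neither methylation nor transcription was measured in the values described here.

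A gene was counted as open in a library when a peak lay within 1 kb of a transcription start site (TSS). Each peak was given the percentile of its score among all peaks of that library, with 0 where no peak was called. The score is not a measured height. The lowest score was 13 in each library, and peaks with the same score in a library got the same percentile. The libraries held 14753 (BM3) and 51497 to 99022 (the other 7) peaks, and a peak can be absent for want of depth as well as of accessibility. A gene is called closed in a library where no TSS peak was called. BM3 stood apart in this respect. It was kept in the main counts and tests, and some results are also given without it. A peak lay at the TSS of Lats1 in 7 libraries, all but BM3, and such a peak does not show whether the gene was deleted. The labels were only partly matched by TSS peaks of defining markers. Krt8 and Gata3 (luminal) and Krt14 and Itga6 (basal-like) had one in all 8 libraries, Krt18 lacked one in BM3, BM4 and BM8 and Epcam in BM4 and BM8, whereas Krt5 had one in BM7 only, Acta2 in BM4 only and Trp63 in none. The luminal gene Elf5 had one in 7 libraries, all but BM3, and its percentiles in Lats1-CKO basal-like cells (93.3 in BM4, 86.7 in BM8) were above those in WT luminal cells (76.6 in BM1, 34.5 in BM5). The defining markers Ptprc and Cd3e (immune), Cdh5 (endothelial) and Col3a1 (fibroblast) had none in any library. The immune marker Cd68 and the fibroblast marker Pdgfra had one in 7 libraries, all but BM3, and the fibroblast marker Col1a1 in 5, all but BM3, BM5 and BM6. The endothelial marker Pecam1 had one in BM2, BM4, BM7 and BM8, with percentiles of 21.1 to 89.3, and Kdr in BM1 and BM4. The part of such cells in the values below was not tested. Of 4 neuronal genes, 1 to 4 had a TSS peak per library, and Snap25 had one in all 8.

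Most of the clustered protocadherin promoters were closed in all groups. No TSS peak was called in any library for 36 of the 57 genes, and 21 genes (36.8%) had one in at least 1 library, as compared to 65.4% of all protein-coding genes. Of these 21 genes, 8 had a peak in 1 library, 7 in 2, 3 in 3 and 2 in 4 libraries, and 1 gene, Pcdhgc3, had one in all 8 (1.75% of the members, against 31.7% of all genes). The 3 genes with a peak in at least 4 libraries were all in the gamma subcluster, whereas alpha and beta genes had one in at most 3.

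In WT luminal cells, 5 of the 57 genes had a TSS peak in BM1 and 5 in BM5, and in WT basal-like cells 4 had one in BM2 and 3 in BM6. In Lats1-CKO luminal cells, 1 gene had one in BM3 and 12 in BM7, and in Lats1-CKO basal-like cells 9 had one in BM4 and 8 in BM8. The share of open clustered protocadherins thus ran from 1.75% to 21.1%. The background over all protein-coding genes was 56.4% in BM1, 54.4% in BM2, 33.9% in BM3, 55.6% in BM4, 49.1% in BM5, 51.2% in BM6, 57.7% in BM7 and 56.7% in BM8. The members were therefore below the background in each of the 8 libraries. BM7, BM4 and BM8, the 3 Lats1-CKO libraries other than BM3, had more open members than any WT library, and they also had the most peaks in total (86279 to 99022, against 51497 to 72685 in WT).

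**Figure D1:**
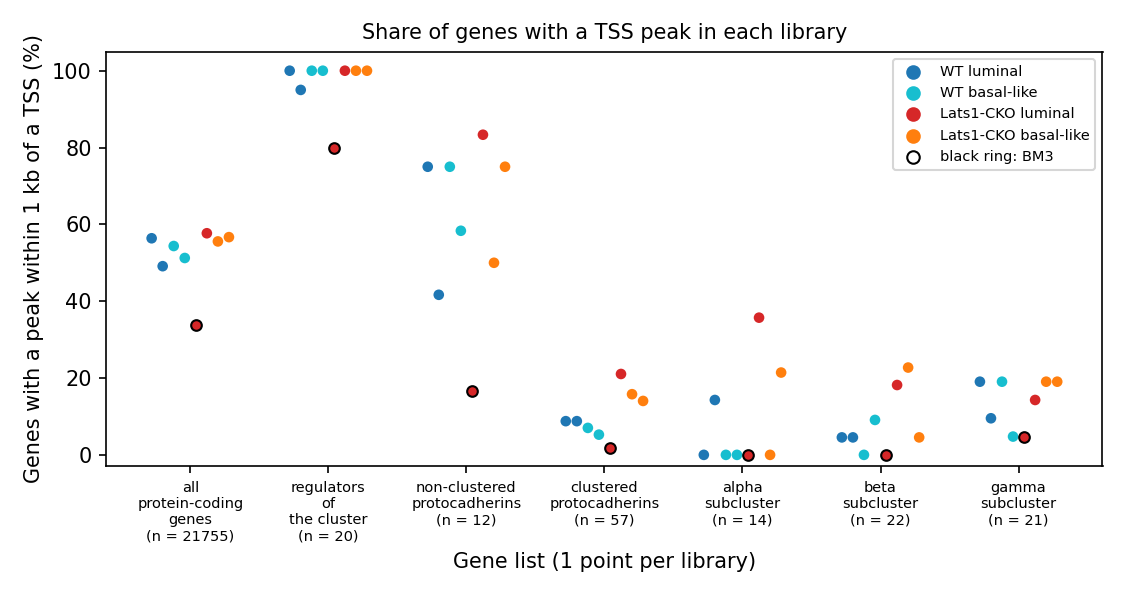
Percent of genes with a TSS peak at 1 kb or less (vertical axis) in each gene list (horizontal axis), with 1 point per library colored by group and BM3 ringed in black. The clustered protocadherins lie between 1.75% and 21.1%, below all protein-coding genes (33.9% to 57.7%) in every library.

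Genes that flank the cluster, and most of those encoding its known regulators, were open in all libraries. Of the 5 genes listed beside or inside the cluster, 3 lie outside it. Zmat2, upstream of the alpha subcluster, and Diaph1 and Hdac3, downstream of the gamma subcluster, each had a TSS peak in all 8 libraries, and the other 2, Taf7 and Slc25a2, lie where peak numbers were skipped and are taken up with these at the end. Of 20 genes encoding regulators of the cluster, all 20 had a TSS peak in at least 4 libraries. In all 8 libraries 16 (80.0%) had one, against 31.7% of all protein-coding genes. These included Ctcf and the cohesin subunits Rad21, Smc1a, Smc3, Stag1 and Stag2, the cohesin loader Nipbl, and Smchd1, which is needed to silence the cluster in some tissues. Dnmt3b, a de novo DNA methyltransferase, had percentiles of 39.8 in BM1, 32.03 in BM2, 66.2 in BM4, 20.1 in BM6, 45.7 in BM7 and 54.4 in BM8 and no peak in BM3 or BM5. Another list held 10 genes encoding intracellular partners of protocadherins, such as the focal adhesion kinases Ptk2 and Ptk2b and the WAVE complex genes Wasf1, Cyfip1 and Nckap1. Of these, 8 (80.0%) had a peak in all 8 libraries, against the same 31.7%, and Ret had one in BM2 and BM7 only.

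The non-clustered protocadherins, single genes with related extracellular domains that are encoded elsewhere, were also open more often than the clustered ones. Of these 12 genes, 11 (91.7%) had a TSS peak in at least 1 library, against 65.4% of all protein-coding genes. In at least 4 libraries 8 had one, against 11899 of all 21755 genes. Only 2 (16.7%), Pcdh10 and Pcdh19, had one in all 8, against 31.7% of all genes. Pcdh12 had none. Pcdh1 and Pcdh12 are also on chromosome 18, downstream of the cluster, and Pcdh1 had a peak in 6 libraries, all but BM3 and BM5.

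The only member with a TSS peak in every library, Pcdhgc3, was in the gamma subcluster. Pcdhgc3 (ENSMUSG00000102918, chr18:37806364-37841873) is a C-type gamma gene, and one that is known to be expressed outside the nervous system. Its TSS percentile was 96.2 (BM1) and 95.02 (BM5) in WT luminal cells, 96.3 (BM2) and 92.2 (BM6) in WT basal-like cells, 64.7 (BM3) and 96.7 (BM7) in Lats1-CKO luminal cells, and 98.5 (BM4) and 98.5 (BM8) in Lats1-CKO basal-like cells. All libraries but BM3 were thus above 90, and with BM3 the genotypes overlapped (Lats1-CKO minus WT, -5.34 percentiles, two-sided exact permutation test over 4 against 4 libraries, p = 1.0). Without BM3 each of the remaining 3 Lats1-CKO libraries was above each of the 4 WT libraries. This was so for 9.88% of all genes with a TSS peak in the 7 libraries, and the margin was small (96.7 against 96.3). When each library was reduced to its 10000 highest-scoring peaks, Pcdhgc3 was the 1 member with a TSS peak in each of the 8 libraries, against 19.03% to 27.6% of all genes.

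The other C-type gamma genes were closed or open in WT cells only. Pcdhgc4 (ENSMUSG00000023036, chr18:37815079-37841873), whose product is known to act in neuron survival, had percentiles of 32.03 (BM1) and 22.5 (BM5) in WT luminal cells, 35.8 (BM2) and 0 (BM6) in WT basal-like cells, and 0 in BM3, BM7, BM4 and BM8 (Lats1-CKO). Peaks were thus called in 3 of 4 WT libraries and in no Lats1-CKO library, and the genotypes overlapped through BM6, without which they did not, as for 2.12% of genes (difference -22.6 percentiles, exact permutation test, p = 0.143, adjusted p = 1.0 over 14221 genes). These peaks were in 2 places, upstream of the gene (chr18:37814623-37814733 in BM1, BM2 and BM5) and at the TSS of a second transcript (chr18:37815266-37815435 in BM2 and BM5). Pcdhgc4 was the 1 member with a peak in both WT luminal and neither Lats1-CKO luminal library, a pattern seen in 1.01% of the 14221 genes with a TSS peak in any library, and 1 of these Lats1-CKO libraries was BM3, which had the fewest peaks. Pcdhgc5, the last gene of the subcluster, had no TSS peak in any library.

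Pcdhga1, the first gene of the gamma subcluster (ENSMUSG00000103144, chr18:37661793-37841873), had the largest difference between genotypes among the members. Its percentile was 0 in BM1 and BM5 (WT luminal), 40.3 (BM2) and 0 (BM6) in WT basal-like cells, 0 (BM3) and 80.3 (BM7) in Lats1-CKO luminal cells, and 63.0 (BM4) and 87.2 (BM8) in Lats1-CKO basal-like cells. The 3 highest values were from Lats1-CKO cells, but BM3 was at 0 with 3 WT libraries, so that the genotypes overlapped (difference 47.5 percentiles, exact permutation test, p = 0.143, adjusted p = 1.0). Without BM3 they did not, as for 9.88% of all genes. The peaks lay immediately upstream of the TSS, with centers 72 to 108 bp before it.

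Pcdhgb6 (chr18:37742094, plus strand, at its TSS) was the third member with a TSS peak in at least 4 libraries. It had percentiles of 66.5 (BM1) and 0 (BM5) in WT luminal cells, 21.1 (BM2) and 0 (BM6) in WT basal-like cells, 0 (BM3) and 0 (BM7) in Lats1-CKO luminal cells, and 24.9 (BM4) and 31.9 (BM8) in Lats1-CKO basal-like cells. WT libraries of both populations were split, and the Lats1-CKO populations did not overlap. Pcdhgb6 was the 1 member with a peak in both Lats1-CKO basal-like and neither Lats1-CKO luminal library, a pattern seen in 1.78% of genes. The reverse pattern was seen in 0.19% of genes, and 1 of these luminal libraries was BM3, which had the fewest peaks. The difference between genotypes was -7.71 percentiles (exact permutation test, p = 0.886).

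Of the remaining gamma genes, Pcdhga9 had a TSS peak in BM1 and BM8, Pcdhgb5 in BM7 and Pcdhgb7 in BM4, with percentiles of 9.03 to 47.1. The other 14 gamma genes had none in any library. The 3 genes named in this paragraph and the alpha and beta genes below, other than the C-type ones, were picked for having a peak in 1 to 3 libraries.

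**Figure D2:**
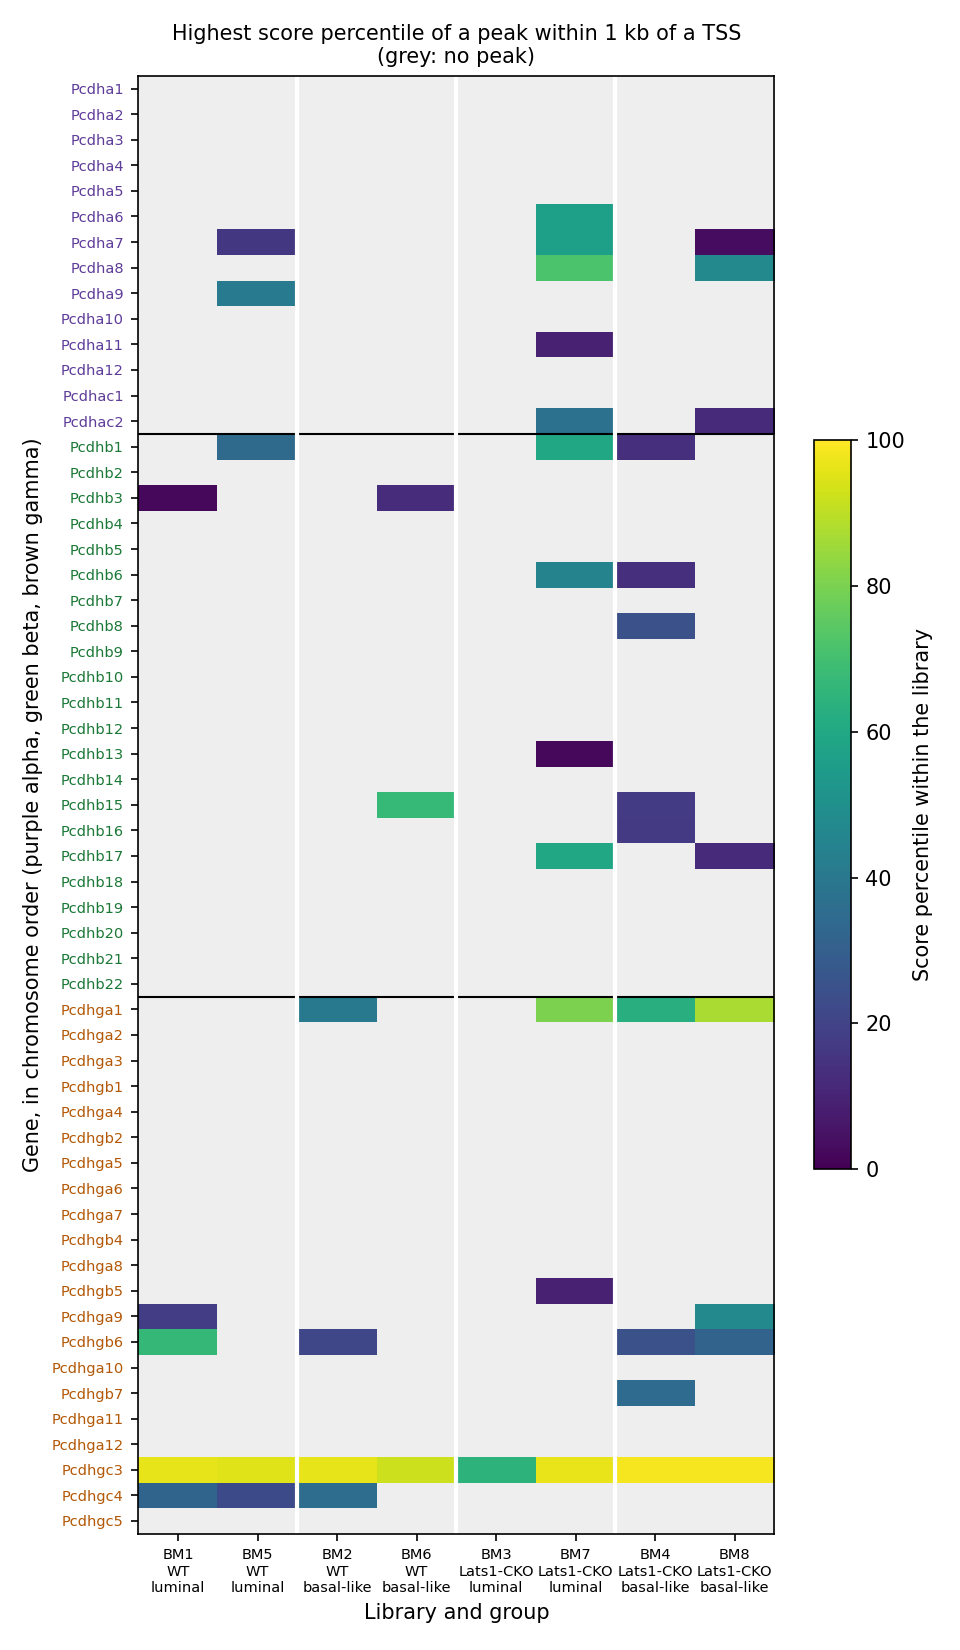
Highest score percentile of a peak within 1 kb of a TSS (color, 0 to 100) for the 57 genes in chromosome order (rows) in the 8 libraries ordered by group (columns), with grey where no peak was called. Pcdhgc3 is the 1 row filled in all 8 libraries, and BM3 has no other peak.

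Alpha genes were mostly closed. No alpha TSS peak was called in BM1, BM2, BM3, BM4 or BM6, whereas BM5 had 2, BM7 had 5 and BM8 had 3. The mean was 2.0 ± 2.45 genes in Lats1-CKO and 0.50 ± 1.0 in WT libraries (SD, n = 4 each), which overlapped because 2 Lats1-CKO libraries had none. Pcdha7 had percentiles of 16.4 in BM5, 56.6 in BM7 and 3.35 in BM8, and Pcdha8 had 71.6 in BM7 and 47.1 in BM8. The BM5 peak of Pcdha7 had a score of 13, the lowest in that library, and its BM8 peak a score of 15. Pcdha6 (56.6 in BM7), Pcdha9 (41.0 in BM5) and Pcdha11 (9.03 in BM7) were each open in 1 library. The other 7 alternate alpha genes, Pcdha1 to Pcdha5, Pcdha10 and Pcdha12, had none.

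Of the C-type alpha genes, Pcdhac1 (ENSMUSG00000103255, chr18:37090013-37187657) had no TSS peak in any library, and 1 peak in its first exon in BM4 (percentile 44.2). Pcdhac2 (ENSMUSG00000102697, chr18:37143503-37187657), the alpha gene nearest to the constant exons and one known to be expressed in serotonergic neurons, had percentiles of 37.3 in BM7 and 11.8 in BM8 and no peak in the other 6 libraries. Both peaks were from Lats1-CKO cells, 1 of each population, and no alpha gene separated the 4 Lats1-CKO from the 4 WT libraries.

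Beta genes had a TSS peak in 8 of 22 cases, none of them in more than 3 libraries. The number of open beta genes was 1 (BM1) and 1 (BM5) in WT luminal, 0 (BM2) and 2 (BM6) in WT basal-like, 0 (BM3) and 4 (BM7) in Lats1-CKO luminal, and 5 (BM4) and 1 (BM8) in Lats1-CKO basal-like cells. Groups overlapped throughout, with 2.5 ± 2.38 in Lats1-CKO against 1.0 ± 0.816 in WT libraries (SD, n = 4 each). Pcdhb1, the first and most distant of the beta genes, was the 1 beta gene with 3 peaks, at 34.5 in BM5, 59.5 in BM7 and 13.9 in BM4. Pcdhb3 (BM1, BM6), Pcdhb6 (BM4, BM7), Pcdhb15 (BM4, BM6) and Pcdhb17 (BM7, BM8) had 2 each, with percentiles between 2.23 and 67.1. Pcdhb8 and Pcdhb16 were open in BM4 only and Pcdhb13 in BM7 only. The gamma count was more even, at 4 in BM1, 2 in BM5, 4 in BM2, 1 in BM6, 1 in BM3, 3 in BM7, 4 in BM4 and 4 in BM8, with means of 3.0 ± 1.41 in Lats1-CKO and 2.75 ± 1.5 in WT (SD, n = 4 each).

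TSS peaks of the cluster mostly had low score percentiles. In all, 49 peaks lay within 1 kb of a member's TSS, with a median width of 115 bp and a median percentile of 35.8, or 31.9 without Pcdhgc3. The width was not compared with that of TSS peaks of other genes. Fragments over 120 bases had been excluded by the study before peaks were called. In the 7 libraries with more than 1 open member, the median percentile of the open members other than Pcdhgc3 was 21.2 to 56.6, whereas that of all genes with a TSS peak was 77.1 to 84.3. The position of the peaks also differed by subcluster. The median center was 55.3 bp upstream of the TSS for beta and 80.0 bp upstream for gamma genes, and 35 of the 49 centers were 0 to 250 bp upstream, but for alpha genes it was 500 bp downstream. The alpha median rests on 7 of 10 peaks from 3 genes, Pcdha7, Pcdha8 and Pcdhac2, whose peaks lay inside the first exon, and the single peaks of Pcdha6, Pcdha9 and Pcdha11 were centered 67.5 to 125 bp upstream.

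The question of the study for these libraries was how loss of Lats1 changes accessibility in luminal and basal-like cells. The number of open members was 7.5 ± 4.65 in Lats1-CKO and 4.25 ± 0.957 in WT libraries, a difference of 3.25 that is smaller than the SD of the Lats1-CKO libraries (n = 4 each). Over all protein-coding genes the means were 51.0% and 52.8%. Between populations it was 6.0 ± 2.94 in basal-like and 5.75 ± 4.57 in luminal libraries (n = 4 each), a difference of 0.25. The genotype difference was 5.42 without BM3 and 1.75 without BM7, and it was 0 when only the top 10000 peaks of each library by score were kept. At that cut each library had 1 open member, Pcdhgc3, so the 0 cannot show whether the other members differed.

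Gene by gene, no member separated the genotypes or the populations. Of the 14221 genes with a TSS peak in any library, the percentiles of the 4 Lats1-CKO libraries were all above those of the 4 WT libraries in 0.443% and all below in 0.738%, and among the 21 members with any peak in 0 and 0. The percentiles of the basal-like libraries were all above the luminal ones in 0.71% and all below in 0.218% of genes, again in 0 and 0 members. With 21 members and these backgrounds, a count of 0 does not set them apart from other genes. The smallest p among members was 0.143 for genotype and 0.371 for population by the exact permutation test, so that none was under an unadjusted 0.05. With 4 against 4 libraries the smallest p this test allows is 0.0286, and no gene at all passed an adjusted p of 0.05 (Benjamini-Hochberg). Between groups of 2 libraries, in which no test can pass, no member had a TSS peak in both Lats1-CKO luminal and neither WT luminal libraries (background 0.0422%). The same count was 0 for both Lats1-CKO basal-like and neither WT basal-like libraries (2.4%), and for both WT basal-like and neither WT luminal libraries (0.401%), for both WT luminal and neither WT basal-like libraries (0.745%), for both WT basal-like and neither Lats1-CKO basal-like libraries (0.71%) and for both Lats1-CKO luminal and neither Lats1-CKO basal-like libraries (0.19%).

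Peaks across the whole span, including those between the genes, were counted next. The span held 7 (BM1) and 10 (BM5) peaks in WT luminal, 9 (BM2) and 7 (BM6) in WT basal-like, 1 (BM3) and 19 (BM7) in Lats1-CKO luminal, and 24 (BM4) and 16 (BM8) in Lats1-CKO basal-like cells. Per 10000 peaks of the library this was 0.963 and 1.70 in WT luminal, 1.28 and 1.36 in WT basal-like, 0.678 and 2.03 in Lats1-CKO luminal, and 2.78 and 1.62 in Lats1-CKO basal-like cells. BM4 and BM7 were the highest and BM3 the lowest, so that Lats1-CKO libraries (1.78 ± 0.877) overlapped WT libraries (1.33 ± 0.303, SD, n = 4 each). Basal-like libraries had 1.76 ± 0.697 and luminal ones 1.34 ± 0.630 (SD, n = 4 each). The span had 1.10 to 26.3 peaks per Mb, against 4.96 to 36.4 on chromosome 18 as a whole, and was sparser than the chromosome in each library. In proportion, the 2 values were closest in BM4 (26.3 against 33.0) and furthest apart in BM3 (1.10 against 4.96).

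**Figure D3:**
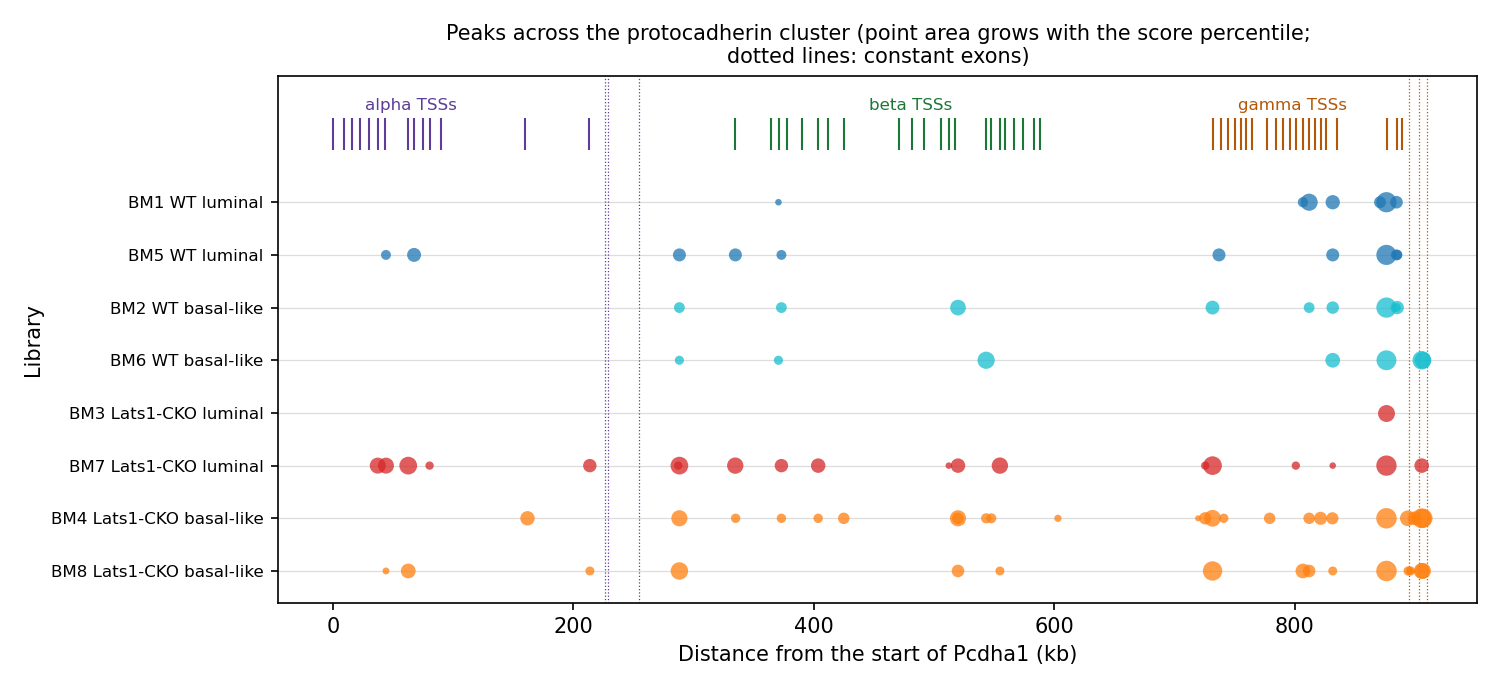
Position of each peak in the cluster, in kb from the start of Pcdha1 (horizontal axis), in each of the 8 libraries (rows, colored by group), with point area growing with the score percentile, ticks at the TSSs and dotted lines at the constant exons. The peak at Pcdhgc3 is present in all 8 rows. Few peaks lie at the alpha genes or in the beta-gamma interval, where peaks may be lacking because peak numbers were skipped.

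Overlapping or touching peaks of the 8 libraries gave 183173 merged regions, of which 45 lay in the span. Of the 45, 24 were called in 1 library only (53.3%, against 44.5% of all regions). In at least 4 libraries 8 of the 45 were called, against 58610 of all 183173 regions. Only 1, at Pcdhgc3, was called in all 8, against 10907 of all 183173. In position, 23 were at a TSS of a member and 22 away from one. The latter comprised 1 in the alpha array, 2 between alpha and beta, 3 in the beta array, 3 between beta and gamma, 8 in the gamma array and 5 among the gamma constant exons.

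Of the regions outside a TSS, 2 were called in 6 libraries each, more than any other. The first lay between the alpha and beta subclusters (chr18:37218293-37218490). This interval is intergenic for the members and is known to contain an enhancer of alpha genes, the position of which was not compared here. The percentile was 0 (BM1) and 34.5 (BM5) in WT luminal cells, 21.1 (BM2) and 12.6 (BM6) in WT basal-like cells, 0 (BM3) and 71.6 (BM7) in Lats1-CKO luminal cells, and 57.8 (BM4) and 69.1 (BM8) in Lats1-CKO basal-like cells. Each Lats1-CKO library but BM3 was above each WT library. With BM3 the genotypes overlapped, and without it a like separation was found in 5.54% of all regions.

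Exon bodies of 2 beta genes held recurrent regions. The one in the exon of Pcdhb3 (chr18:37303148-37303294) had percentiles of 16.4 in BM5, 21.1 in BM2, 37.3 in BM7 and 13.9 in BM4, that is, in 1 library of each group. The BM5 value is that of the lowest score in the library. The one in the exon of Pcdhb14 (chr18:37449999-37450101) had 54.4 in BM2, 44.8 in BM7, 57.8 in BM4 and 31.9 in BM8, and was not called in either WT luminal library. Pcdhb14 had no peak at its own TSS.

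The other region called in 6 libraries was in the gamma array, immediately upstream of the polymorphic pseudogene Pcdhgb8 (chr18:37761600-37761705) and was called in each of the 4 WT libraries. The percentile was 43.7 (BM1) and 34.5 (BM5) in WT luminal cells, 31.2 (BM2) and 46.5 (BM6) in WT basal-like cells, 0 (BM3) and 2.04 (BM7) in Lats1-CKO luminal cells, and 0 (BM4) and 11.8 (BM8) in Lats1-CKO basal-like cells. In percentiles, all WT libraries were above all Lats1-CKO libraries, the 1 region of 45 with no overlap between genotypes. This was so for 0.341% of all regions. The separation depends on the use of percentiles. The peaks in BM5 (WT) and BM8 (Lats1-CKO) had the same score, 27, in libraries with median scores of 43 and 93. No region of the cluster had all Lats1-CKO libraries above all WT libraries (0.0639% of all regions). BM4 had a separate peak close by (chr18:37761335-37761440), so that the highest percentile within 1 kb of the Pcdhgb8 TSS in BM4 was 29.1, still below each WT library. Leaving out a library cannot undo a separation of all libraries, so that is no further support. With each library left out in turn, the background was 0.357% to 2.02% of all regions. Within 5 kb this region also gave Pcdhga12, which had no peak within 1 kb of its TSS, the same separation, found in 0.667% of genes at that distance.

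Among the gamma constant exons, 2 regions in the intron before the last exon were wide and high for the cluster. The first (chr18:37835483-37835844) had percentiles of 79.1 in BM6, 45.7 in BM7, 90.4 in BM4 and 56.3 in BM8 and was not called in BM1, BM5, BM2 or BM3. The second (chr18:37836412-37836979), named because of its neighbor, had 61.5 in BM6, 84.8 in BM4 and 56.1 in BM8, all of them basal-like libraries. Of the basal-like libraries, BM2 had neither. Without BM2, both regions were above every luminal library in every basal-like library, as were 1.52% of all regions. With all 8 libraries no region of the cluster separated the populations (0.521% of all regions were higher and 0.0513% lower in basal-like cells without overlap). Further downstream, inside the neighboring gene Diaph1, 3 regions were called in all 8 libraries (chr18:37849503-37850006, chr18:37852148-37852434 and chr18:37880187-37880473). The first of them had percentiles of 85.3 in BM3 and 89.7 to 98.2 in the other 7 libraries.

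**Figure D4:**
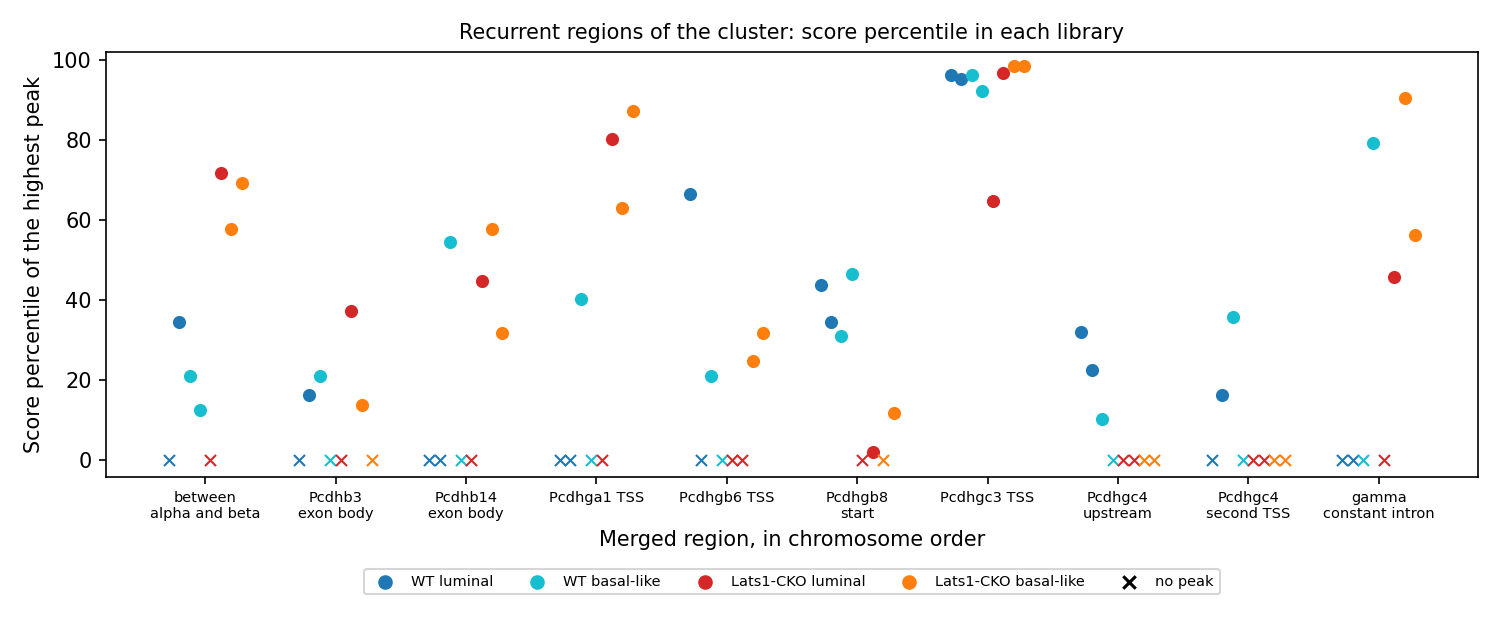
Score percentile of the highest peak (vertical axis) in each library (points colored by group, crosses for no peak) for the 8 regions called in at least 4 libraries and the 2 regions at Pcdhgc4, in chromosome order. The region at the start of Pcdhgb8 is higher in the 4 WT libraries (31.2 to 46.5) than in the Lats1-CKO libraries (0 to 11.8), and the Pcdhgc4 regions are called in WT libraries only.

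Sequence features of the members and regions that the choice of genes had not used were then compared with those of all genes. The sequence from 500 bp before to 500 bp after the TSS had a median GC content of 44.9%, against 54.8% for all protein-coding genes. The ratio of observed to expected CpG was 0.68 in alpha, 0.38 in beta and 0.59 in gamma genes (medians), against 0.56 for all genes. A match to the CTCF consensus on either strand with at most 1 mismatch was found in 3 of 57 promoters (5.26%), against 12.03% of all, and with no mismatch in 0 (0%), against 1.04%. Among the 45 regions with peaks, the central 400 bp held a match with at most 1 mismatch in 8 (17.8%), against 12.7% of all 183173 regions, and with no mismatch in 6 (13.3%), against 3.20%. The matches were at the first-exon regions of Pcdha7 and Pcdha8, at both regions between alpha and beta, at the Pcdhb3 and Pcdhb14 exon regions and at 1 region in the gamma array. The matches at Pcdha7 and Pcdha8 lay more than 500 bp past the TSS, outside the sequence searched for the promoter counts. A pair of neighboring Pcdhb14 regions shared 1 match. A match is a description of the letters and does not show binding. The lack of a match does not show that a CTCF site is absent, since sites that differ by more letters were not counted.

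Because the genes of a subcluster resemble each other and the study kept uniquely aligned reads only, the uniqueness of 50-base windows was measured within 1 kb of each TSS. A median of 98.98% of the windows of a member (82.7% to 100%) occurred once in the genome, against 100% for all genes. The median was 91.3% in alpha and 100% in both beta and gamma genes, and it was 96.9% in the 21 members with a TSS peak and 98.98% in the 36 without. The part of unique alignment in the low share of open members was not tested. In addition, the numbers that name the peaks skipped 1 peak in each of 7 libraries and 3 in BM4, at an interval that in each library included chr18:37533176-37649647, between the beta and gamma subclusters, and that in the 7 libraries other than BM4 was wider, so that the counts above may lack that many peaks. Taf7 and Slc25a2 lie there, and the lack of a TSS peak at these 2 genes in each of the 8 libraries was therefore not read as closed chromatin.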

How the data were processed

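ATAC-seq libraries were made by the authors from 4 sorted groups of cultured PyMT tumor cells, 2 libraries per group. Per the labels and the methods of the study, cutadapt removed adapters, Bowtie 1.0.0 kept unique alignments to mm10, and the reads were cleared of mitochondrial reads, duplicates (Picard 2.3.0) and long fragments, and used to call peaks with MACS2 2.1.1.20160309 (the version in the submitters' processing notes, which differs from that in the paper's methods), after which blacklisted peaks were removed. The authors deposited 1 peak list per library, each peak with a score taken to be that of MACS2. Scores are not comparable between libraries and were turned into percentiles of each library. Read counts are not part of the lists, so depth is unknown, no counting interval can be given, and the read-count comparison of the study was replaced by presence and percentile of peaks. The study set aside 1 Lats1-CKO luminal library for quality without naming it in its text; both were kept here and each library was left out in turn.

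GENCODE M21 gave the TSSs of protein-coding transcripts, and GRCm38 the sequence. The highest percentile within 1 kb of a TSS was compared between 4 and 4 libraries (70 arrangements) by a two-sided exact permutation test per gene, with Benjamini-Hochberg adjustment over all genes with a peak. Regions needed a minimum overlap of 1 bp. No p was computed for counts over the members. The CTCF consensus has 12 letters, and windows of 50 bases were taken every 20 bases. Percentiles in every library are given for the 5 C-type genes, for members with a TSS peak in at least 4 libraries or with no overlap between arms, and for regions outside TSSs called in at least 4 libraries. The members and lists were chosen with earlier results of these data known. Scripts were tested on simulated data and used python 3.11.15, numpy 2.4.6, pandas 2.3.3 and scipy 1.17.1. No sequence of the cluster is reported here.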

Additional observations from a re-analysis of the deposited data

How the results depend on the processing

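The number of members with no overlap between genotypes was 0 and became 1 within 5 kb of a TSS (Pcdhga12, through the region at Pcdhgb8, background 0.667%). With each library left out in turn it ranged from 0 to 2. These were Pcdhga1 and Pcdhgc3 without BM3 (background 9.88%) and Pcdhgc4 without BM6 (background 2.12%). Between populations it was 0 in each alternative. The genotype difference in open members ranged from 1.75 to 5.42 with each library left out, with 5.0 within 5 kb and 1.5 among peaks above the library's median score, and that between populations from -1.33 (without BM3) to 2.33 (without BM7), with 3.0 within 5 kb and -1.0 among peaks above the library's median score. That in peaks per 10000 ranged from 0.117 (without BM4) to 0.818 (without BM3) between genotypes and from 0.0738 (without BM4) to 0.645 (without BM7) between populations. Promoters with the CTCF consensus went from 3 to 0 with no mismatch, a stricter rule by construction. No paired analysis was possible because the labels carry no replicate numbers. The number of peaks called, which limits each absence, was lowest in BM3, where 1 member was open.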
